A study of Saccharomyces cerevisiae with 12 samples.

Results

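A set of 10 genes, listed as glucose-repressed genes of non-fermentable carbon use in budding yeast, was followed through 12 expression arrays: ISF1, MBR1, JEN1, FBP1, PCK1, ICL1, MLS1, SFC1, CAT8 and FDH1. They are 10 of 6228 genes on the array and 10 of 6127 genes tested, and each was found by the systematic name printed for its probe. ISF1 was chosen by its measured values, the large opposite changes with the 2 constructs, so its values are given as a description with no test, and it is left out of the counts. This holds for the deletion too, which is read from the control groups of both construct comparisons. The other 9 were listed by name, but with earlier results of these data known, so they are not a set chosen independently of the data. All 10 genes were well above background on all 12 arrays, so none entered through a filter on 1 group.

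The study compared Saccharomyces cerevisiae BY4741 cultures in 4 groups of 3. WT_Con was wild type with an empty vector, and WT_CTR1 was wild type over-expressing CTR1, the high-affinity copper transporter of the plasma membrane. Dctr1_Con was the ctr1 deletion strain with an empty vector, and Dctr1_CTR1D300, written CTR1D300 below, was the deletion strain over-expressing the construct CTR1 delta-300. Every culture, controls included, grew in SC medium without leucine with 0.02 mM CuCl2 for 7 h at 30 °C, with shaking at 180 rpm. An OD600 of 0.6 is given for all of them. The promoter of the constructs, the carbon source of the medium and the number of clones per strain are not given in the sources used here.

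Glucose represses many genes of this kind, in part through the repressor Mig1, and the kinase Snf1 lifts the repression when glucose runs low. Snf1 also acts on Cat8, a zinc-cluster activator that drives genes of gluconeogenesis and of the glyoxylate cycle. Those pathways let a cell build sugar from ethanol, acetate or lactate.

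Signals are log2 values relative to the 75th percentile of the same array, and they are set only against other arrays of the same probe. Fold changes are log2 ± SE with 3 arrays per group, from a limma fit to all 12 arrays. Adjusted p is Benjamini-Hochberg over all genes tested, and a gene is said to have risen or fallen where it was under 0.05. The p values rest on the spread among arrays within groups, pooled over the 4 groups for each gene and moderated across genes by limma. A variable group therefore also widens comparisons that do not include it. The labels describe the 3 arrays of a group as independent experiments. In bulk RNA, a change in the share of cells that express a gene and a change in RNA per cell cannot be told apart.

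The arrays differed in ways that touch these results. Control arrays lay in column 1 of each slide and over-expressing arrays in column 2, so the effect of a construct and that of the column cannot be told apart within a strain. Replicate 1 of every group shared slide 1, which was scanned on an earlier day, while replicates 2 and 3 were on slide 2 for wild type and on slide 3 for the deletion strain. The CTR1 probe rose from -2.50 ± 0.03 in WT_Con to 4.62 ± 0.13 in WT_CTR1 (mean ± SD, n = 3 each). In the deletion strain it was well above background on 0 arrays, with measured means of -9.98 ± 0.15 in Dctr1_Con and -9.02 ± 0.38 in CTR1D300, and whether it can read the CTR1D300 construct was not tested. LEU2, which the BY4741 chromosome lacks and which is a common plasmid marker, had mean signals of 5.86 and 5.59 in the empty-vector groups WT_Con and Dctr1_Con, 4.35 in WT_CTR1 and -0.79 in CTR1D300, and its part in the results below was not tested. STE2, MFA1, MFA2 and BAR1, which mark a-type cells such as BY4741, were well above background on all 12 arrays. So were the α-type genes STE3, MF(ALPHA)1 and MF(ALPHA)2, while HIS3, URA3 and MET17, which the strain lacks, were well above background on 0 arrays. MF(ALPHA)1 had its highest mean in WT_CTR1 (-4.69, against -5.47 in WT_Con) and its lowest in CTR1D300 (-7.86, against -5.34 in Dctr1_Con), so it rose with CTR1 (0.79 ± 0.14, adjusted p = 0.00474) and fell with CTR1D300 (-2.52 ± 0.14, adjusted p = 2.68e-07). Those are the groups in which 8 of the 9 genes other than ISF1 had their highest and lowest means. STE3 fell with CTR1D300 as well (-1.05 ± 0.09, adjusted p = 3.32e-06), while MF(ALPHA)2 rose (0.33 ± 0.10, adjusted p = 0.0187). Of the 4 a-type genes, STE2 fell with both constructs (-0.70 ± 0.09, adjusted p = 0.00092, and -0.30 ± 0.09, adjusted p = 0.0191) and MFA1 fell with CTR1 (-0.81 ± 0.16, adjusted p = 0.00751). The part of these shifts in the results below was not tested.

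**Figure D1:**
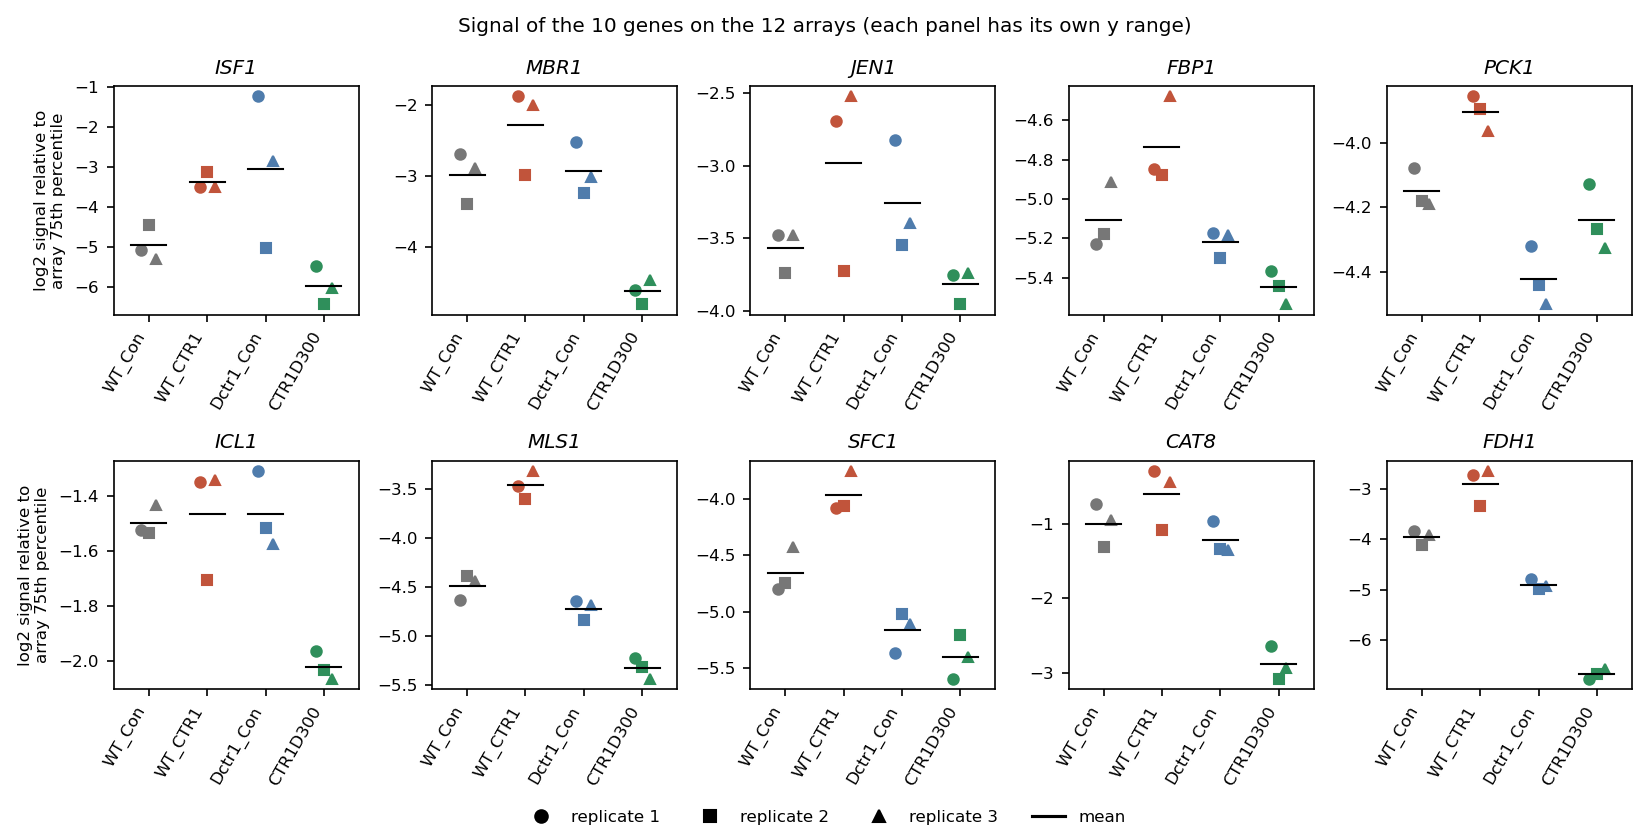
Signal of each gene on each array, on the y axis as log2 relative to the array's 75th percentile, with the 4 groups on the x axis, one point per array, the shape giving the replicate number and the bar the group mean. The CTR1D300 arrays lie below all other arrays for MBR1, JEN1, FBP1, ICL1, MLS1, CAT8, FDH1 and ISF1, and the Dctr1_Con arrays of ISF1 run from -5.03 to -1.23.

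Across the 4 groups, the mean signal was highest in WT_CTR1 and lowest in CTR1D300 for 8 of the 9 genes other than ISF1. That order was shown by 29.2% of all genes tested. The exception was PCK1, whose lowest mean was in Dctr1_Con. The span from the highest to the lowest group mean was 3.77 for FDH1, 2.93 for ISF1, 2.34 for MBR1 and 2.27 for CAT8. It was smaller for MLS1 (1.86) and SFC1 (1.44), and smallest for JEN1 (0.83), FBP1 (0.71), ICL1 (0.56) and PCK1 (0.51). The groups of FDH1 and MLS1 did not overlap at any step of the order from WT_CTR1 through WT_Con and Dctr1_Con to CTR1D300. For CAT8, by contrast, WT_CTR1 overlapped WT_Con and WT_Con overlapped Dctr1_Con, and only CTR1D300 stood apart.

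CAT8 (YMR280C) is the activator in the set. Its signal was -0.74, -1.31 and -0.95 in WT_Con, -0.30, -1.08 and -0.45 in WT_CTR1, -0.96, -1.34 and -1.35 in Dctr1_Con, and -2.63, -3.08 and -2.93 in CTR1D300. All 3 CTR1D300 arrays were below every other array, and the other 3 groups overlapped one another. CAT8 fell with CTR1D300 (-1.66 ± 0.21, adjusted p = 9.04e-05), which is 3.16-fold lower than in Dctr1_Con. With CTR1 in wild type the fitted value was 0.39 ± 0.21 (adjusted p = 0.271), and the call depended on the fit: with a replicate block the adjusted p was 0.0212, and without WT_CTR1 replicate 2 the value was 0.63 (adjusted p = 0.0406). Leaving out WT_Con replicate 2 or WT_CTR1 replicate 1 took it down to 0.24 (adjusted p = 0.601 and 0.609).

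MBR1 (YKL093W) and ISF1 (YMR081C) are paralogs, and MBR1 is named for mitochondrial biogenesis. MBR1 was at -2.69, -3.39 and -2.89 in WT_Con, -1.88, -2.99 and -2.005 in WT_CTR1, -2.53, -3.24 and -3.02 in Dctr1_Con, and -4.61, -4.81 and -4.48 in CTR1D300. Again the CTR1D300 arrays stood below the rest, and replicate 2 was the lowest array of each group. MBR1 fell with CTR1D300 (-1.70 ± 0.29, adjusted p = 0.000592). In wild type, CTR1 gave 0.70 ± 0.29 (adjusted p = 0.144). That comparison passed with a replicate block (adjusted p = 0.0118) and without WT_CTR1 replicate 2 (1.05, adjusted p = 0.0126).

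ISF1 was at -5.06, -4.44 and -5.30 in WT_Con and at -3.49, -3.12 and -3.49 in WT_CTR1, and these groups did not overlap. In the deletion strain it was at -1.23, -5.03 and -2.85 in Dctr1_Con and at -5.46, -6.42 and -6.02 in CTR1D300. The Dctr1_Con arrays covered most of the range seen in the whole series, with replicate 1 above all WT_CTR1 arrays and replicate 2 among the WT_Con arrays. Their SD of 1.91 was exceeded by 1 of 6127 genes (0.0163%), against a median SD of 0.101 over all genes in that group. Both spots of the probe read alike there, with processed signals of 2544 and 2338 in replicate 1 and 226.4 and 224.3 in replicate 2. The fitted difference was 1.56 ± 0.71 with CTR1 and -2.93 ± 0.71 with CTR1D300. The CTR1D300 difference was -2.03 without Dctr1_Con replicate 1 and -3.93 without Dctr1_Con replicate 2, and on slide 1 it was -4.24 against -2.28 on slide 3. Between the empty-vector strains, which are the control groups of those same comparisons, Dctr1_Con was at 1.90 above WT_Con, a value that the choice of ISF1 also favours. It was 0.99 without Dctr1_Con replicate 1 and 2.89 without Dctr1_Con replicate 2.

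The transporters in the set are Jen1, which imports lactate and pyruvate across the plasma membrane, and Sfc1, which exchanges succinate for fumarate across the mitochondrial inner membrane. JEN1 (YKL217W) was at -3.48, -3.74 and -3.48 in WT_Con, -2.70, -3.72 and -2.52 in WT_CTR1, -2.82, -3.55 and -3.40 in Dctr1_Con, and -3.75, -3.95 and -3.74 in CTR1D300. WT_CTR1 replicate 2 lay with the WT_Con arrays, far from the other 2 WT_CTR1 arrays. JEN1 passed neither construct comparison: it was at 0.58 ± 0.28 with CTR1 (adjusted p = 0.205) and at -0.56 ± 0.28 with CTR1D300 (adjusted p = 0.108). Single arrays moved both values. The first became 0.95 (adjusted p = 0.00741) without WT_CTR1 replicate 2 and 0.35 (adjusted p = 0.543) without WT_CTR1 replicate 3. The second became -0.34 (adjusted p = 0.344) without Dctr1_Con replicate 1, and without WT_CTR1 replicate 2, which changes only the shared estimate of spread, it passed at adjusted p = 0.0152. A replicate block gave the second an adjusted p of 0.033.

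SFC1 (YJR095W) was at -4.79, -4.74 and -4.43 in WT_Con, -4.08, -4.06 and -3.75 in WT_CTR1, -5.36, -5.02 and -5.11 in Dctr1_Con, and -5.59, -5.21 and -5.40 in CTR1D300. The wild-type groups did not overlap, and the deletion-strain groups did. SFC1 rose with CTR1 by 0.69 ± 0.14 (adjusted p = 0.00853). With CTR1D300 it was at -0.24 ± 0.14 (adjusted p = 0.174), an interval of -0.55 to 0.07 at the 95% level, and at -0.14 (adjusted p = 0.446) without CTR1D300 replicate 1.

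Of the gluconeogenic enzymes, Fbp1 removes a phosphate from fructose bisphosphate and Pck1 makes phosphoenolpyruvate from oxaloacetate. FBP1 (YLR377C) was at -5.23, -5.18 and -4.91 in WT_Con, -4.85, -4.88 and -4.48 in WT_CTR1, -5.17, -5.30 and -5.18 in Dctr1_Con, and -5.37, -5.44 and -5.54 in CTR1D300. The groups of each construct comparison did not overlap, but the differences were small, at 0.37 ± 0.12 with CTR1 (adjusted p = 0.058) and -0.23 ± 0.12 with CTR1D300 (adjusted p = 0.114). The first passed with a replicate block (adjusted p = 0.0259), without WT_CTR1 replicate 2 (0.44, adjusted p = 0.0338) and without WT_Con replicate 3 (0.47, adjusted p = 0.0365). Without WT_CTR1 replicate 3 it was 0.24 (adjusted p = 0.19).

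PCK1 (YKR097W) was at -4.08, -4.18 and -4.19 in WT_Con, -3.86, -3.90 and -3.96 in WT_CTR1, -4.32, -4.44 and -4.50 in Dctr1_Con, and -4.13, -4.27 and -4.32 in CTR1D300. It was the only one of the 10 with a fitted value above 0 for both constructs, at 0.24 ± 0.07 (adjusted p = 0.0509) and 0.18 ± 0.07 (adjusted p = 0.056). With a replicate block both passed, at adjusted p = 0.00369 and 0.00484. The higher-numbered spot alone gave 0.12 (adjusted p = 0.304) and 0.08 (adjusted p = 0.423), and the lower-numbered spot 0.38 (adjusted p = 0.0059) and 0.28 (adjusted p = 0.0116). The spots lay further apart on every column-2 array than on any column-1 array. Processed signals were for example 284.7 and 266.4 in WT_Con replicate 1, and 392.4 and 320.8 in WT_CTR1 replicate 1. The part of the slide column in the PCK1 values was not tested. Leaving out 1 array also moved a value past the test: the CTR1 difference had adjusted p = 0.0464 without Dctr1_Con replicate 1 and 0.0361 without CTR1D300 replicate 1, and the CTR1D300 difference had 0.036 without Dctr1_Con replicate 1 and 0.0419 without CTR1D300 replicate 3.

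Icl1 and Mls1, isocitrate lyase and malate synthase, are the enzymes particular to the glyoxylate cycle. ICL1 (YER065C) was at -1.52, -1.53 and -1.43 in WT_Con, -1.35, -1.71 and -1.34 in WT_CTR1, -1.31, -1.51 and -1.57 in Dctr1_Con, and -1.97, -2.03 and -2.07 in CTR1D300. Only the CTR1D300 arrays stood apart. ICL1 fell with CTR1D300 (-0.56 ± 0.10, adjusted p = 0.00106), and with CTR1 it was at 0.03 ± 0.10 (adjusted p = 0.877, 95% interval -0.20 to 0.26).

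MLS1 (YNL117W) was at -4.63, -4.39 and -4.44 in WT_Con, -3.47, -3.61 and -3.32 in WT_CTR1, -4.64, -4.84 and -4.69 in Dctr1_Con, and -5.22, -5.32 and -5.44 in CTR1D300. No group overlapped another, although WT_Con and Dctr1_Con nearly touched. MLS1 rose with CTR1 by 1.03 ± 0.10 (adjusted p = 0.000169), which is 2.04-fold, and fell with CTR1D300 (-0.60 ± 0.10, adjusted p = 0.000411). Its 2 spots gave different sizes. The lower-numbered spot gave 0.53 with CTR1 and -0.97 with CTR1D300, and the higher-numbered spot gave 1.54 and -0.23 (adjusted p = 0.0606 for the last). The gap came from the column-1 arrays, where for example WT_Con replicate 1 had processed signals of 246 and 142.4 on the 2 spots, while WT_CTR1 replicate 1 in column 2 had 432.6 and 497.8.

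FDH1 (YOR388C) encodes an NAD-dependent formate dehydrogenase. It was at -3.84, -4.12 and -3.92 in WT_Con, -2.73, -3.35 and -2.65 in WT_CTR1, -4.78, -5.00 and -4.93 in Dctr1_Con, and -6.78, -6.68 and -6.58 in CTR1D300. The 4 groups formed 4 separate ranges. FDH1 rose with CTR1 by 1.05 ± 0.16 (adjusted p = 0.00179) and fell with CTR1D300 (-1.77 ± 0.16, adjusted p = 6.84e-06). The array carries 3 probes for this gene, of which the brightest is given above. The other 2 gave 1.61 and 1.06 with CTR1, -1.08 and -1.70 with CTR1D300 and -0.91 and -0.98 for the deletion. FDH2, a near-identical copy of FDH1, was not analysed here, and signal from it on these probes was not tested. YOR387C, which lies next to FDH1, was at -0.21, 0.08 and 0.03 in WT_Con, 0.95, 1.32 and 1.16 in WT_CTR1, -1.66, -1.09 and -1.23 in Dctr1_Con, and -6.02, -2.72 and -2.38 in CTR1D300. Its groups lay in the same order as those of FDH1, with fitted values of 1.18 ± 0.72 (adjusted p = 0.33) for CTR1 and -2.38 ± 0.72 (adjusted p = 0.0167) for CTR1D300.

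**Figure D2:**
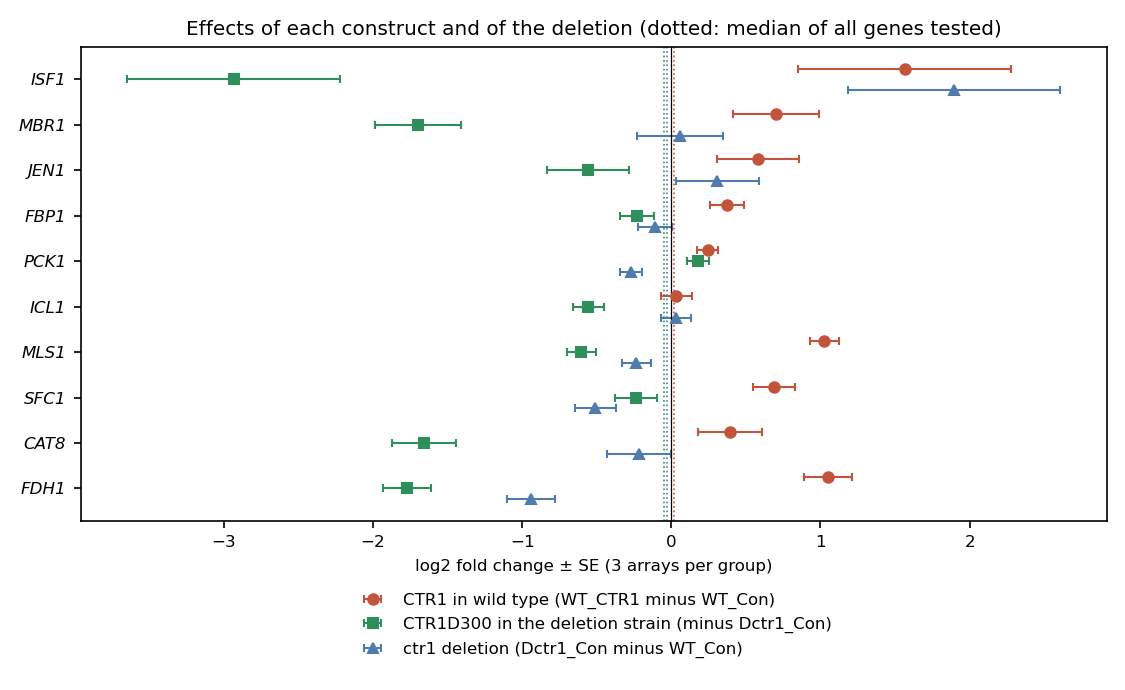
Log2 fold change ± SE of each gene with CTR1 in wild type (circles), with CTR1D300 in the deletion strain (squares) and for the deletion itself (triangles), with 3 arrays per group and dotted lines at the median of all genes tested. FDH1 and MLS1 passed the test on opposite sides of 0 for the 2 constructs, and PCK1 has both construct values above 0.

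With CTR1 in wild type, 3 of the 9 genes rose (MLS1, SFC1 and FDH1) and 0 fell, where 7.25% of all genes tested rose and 13.3% changed. The wild-type groups did not overlap for 5 of the 9, all higher in WT_CTR1, against 17% of all genes. The median of the 9 fold changes was 0.58, beside 0.02 for all genes. All 9 fitted values were above 0. Replicate numbers pair the arrays in this comparison, and with a replicate block 7 of the 9 rose, MBR1, FBP1, PCK1 and CAT8 being added, while 15% of all genes rose. Without WT_CTR1 replicate 2, 7 of the 9 rose and 9.71% of all genes did. Those 7 included JEN1 and not PCK1, unlike the 7 under the block.

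With CTR1D300 in the deletion strain, 5 of the 9 genes fell (MBR1, ICL1, MLS1, CAT8 and FDH1) and 0 rose, where 30.6% of all genes fell and 54.5% changed. The groups did not overlap for 7 of the 9, all lower in CTR1D300, against 34.9% of all genes. The median was -0.56, beside -0.05 for all genes. With a replicate block JEN1 was added to those that fell and PCK1 rose, while 37.2% of all genes fell and 29.3% rose. The choice of ISF1 used both construct comparisons, and the 9 were listed with earlier results of these data known. The shares of all genes are therefore given beside these counts only as background. MLS1 and FDH1 were the 2 of the 9 that rose with CTR1 and fell with CTR1D300, a pair of calls made for 2.76% of all genes.

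The 2 construct effects were compared directly by their difference, CTR1D300 minus CTR1. A column effect of equal size in both strains drops out of this difference. It was below 0 and passed for 8 of the 9 genes, where 26.7% of all genes passed with a value below 0 and 46.4% in either direction. The median of the 9 was -1.14, beside -0.07 for all genes. FDH1 had -2.83 ± 0.23 (adjusted p = 4.34e-06), MBR1 -2.40 ± 0.41 (adjusted p = 0.000861), CAT8 -2.05 ± 0.30 (adjusted p = 0.000347) and MLS1 -1.63 ± 0.14 (adjusted p = 6.36e-06). In each of the 3 replicate sets these 4 genes had a difference below 0, for example -3.10, -2.45 and -2.93 for FDH1. Each set joins the strains by replicate number only. For FDH1 and MLS1, whose groups did not overlap in either construct comparison, any pairing gives that sign. For the smaller values, SFC1 was at -0.93 ± 0.20 (adjusted p = 0.00339), FBP1 at -0.60 ± 0.16 (adjusted p = 0.0121) and ICL1 at -0.59 ± 0.15 (adjusted p = 0.00761). JEN1 was at -1.14 ± 0.39 (adjusted p = 0.0343), and its call was lost when any of 7 single arrays was left out (WT_Con replicates 2 and 3, WT_CTR1 replicates 1 and 3, Dctr1_Con replicate 1, and CTR1D300 replicates 2 and 3), with values from -1.18 to -0.91. PCK1 was the gene that did not pass, at -0.06 ± 0.10 (adjusted p = 0.64, 95% interval -0.29 to 0.16).

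For MLS1, whose spots gave different construct effects, the difference was -1.51 on the lower-numbered spot (adjusted p = 3.57e-05) and -1.78 on the higher-numbered spot (adjusted p = 3.38e-06). The spots of CAT8 were also apart, at 0.65 and 0.16 with CTR1 and -1.37 and -1.95 with CTR1D300, and those of ICL1 at 0.22 and -0.13 with CTR1 and -0.39 and -0.73 with CTR1D300. The higher-numbered CAT8 spot was the brighter on every column-1 array and the dimmer on every column-2 array. Processed signals were for example 2402 and 3214 in WT_Con replicate 1, and 4468 and 3926 in WT_CTR1 replicate 1. For ICL1 the same held except on Dctr1_Con replicate 3.

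**Figure D3:**
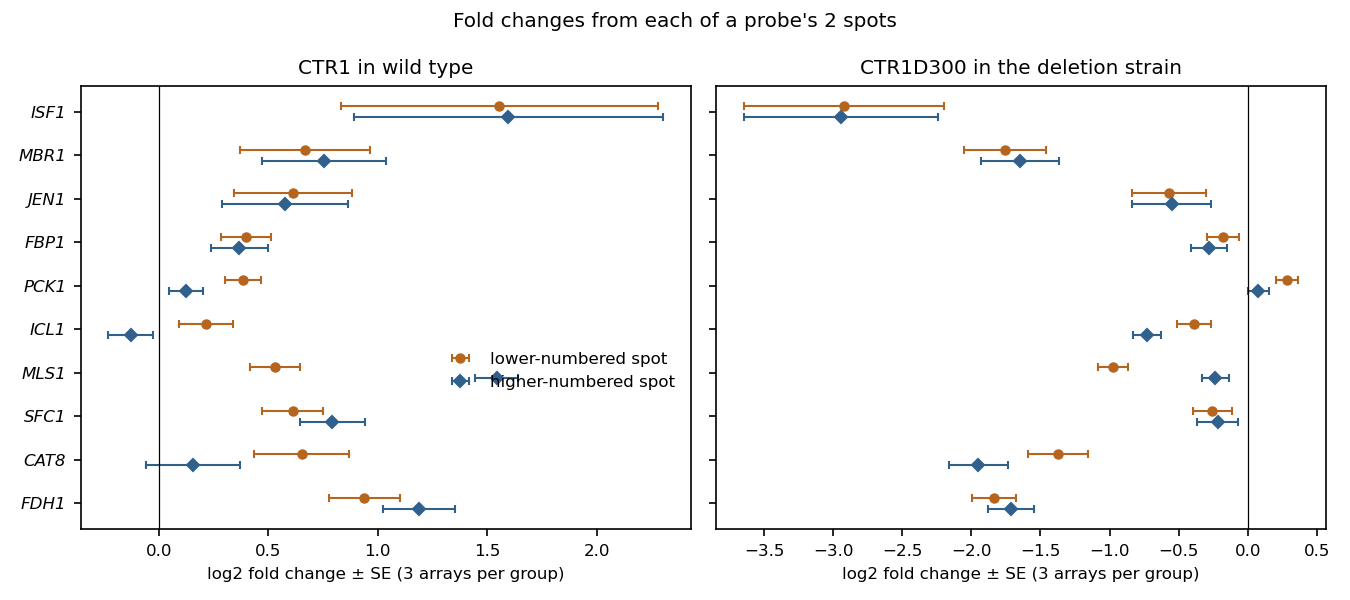
Log2 fold change ± SE with CTR1 in wild type (left) and with CTR1D300 in the deletion strain (right), computed from the lower-numbered spot (circles) and the higher-numbered spot (diamonds) of each probe, with 3 arrays per group. The spots of MLS1 lie at 0.53 and 1.54 on the left and at -0.97 and -0.23 on the right, while those of MBR1 and ISF1 nearly coincide.

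Over-expressing cultures were also set against each other, CTR1D300 against WT_CTR1, which differ in both strain and construct but share the slide column. Replicates 2 and 3 lay on slide 3 for CTR1D300 and on slide 2 for WT_CTR1, so the slide differs there too. All 9 genes were lower in CTR1D300, where 38.4% of all genes were lower and 62.9% changed, and the groups did not overlap for any of the 9, against 39.3% of all genes. The median was -1.44. On this comparison the median of all genes was at -0.11 and moved to 0.00 under quantile normalisation. FDH1 was 13.6-fold lower (-3.77 ± 0.16, adjusted p = 2.21e-08), MBR1 5.07-fold (-2.34 ± 0.29, adjusted p = 4.5e-05), CAT8 4.83-fold (-2.27 ± 0.21, adjusted p = 6.09e-06) and MLS1 3.64-fold (-1.86 ± 0.10, adjusted p = 7.16e-08). SFC1 was at -1.44 ± 0.14, JEN1 at -0.83 ± 0.28 (adjusted p = 0.0215), FBP1 at -0.71 ± 0.12 and ICL1 at -0.56 ± 0.10. The call on JEN1 was lost without WT_CTR1 replicate 1 (-0.69), WT_CTR1 replicate 3 (-0.60) or CTR1D300 replicate 2 (-0.76). PCK1 was at -0.33 ± 0.07 (adjusted p = 0.00224), and at -0.02 (adjusted p = 0.805) under quantile normalisation. ISF1, untested, was at -2.60 ± 0.71, and at -1.32 with the slide as a fixed block.

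The deletion itself was read from the empty-vector strains, Dctr1_Con against WT_Con, both in slide column 1. Replicates 2 and 3 lay on slide 3 for Dctr1_Con and on slide 2 for WT_Con. In those replicates the effect of the deletion and that of the slide cannot be told apart. Of the 9 genes, 1 fell, where 0.163% of all genes fell and 0.49% changed. That gene was FDH1, at -0.94 ± 0.16 (adjusted p = 0.0278), with differences of -0.95, -0.88 and -1.01 in the 3 replicates. The size held between -1.02 and -0.88 when single arrays were left out, but the call was lost without WT_Con replicate 1 or 3, without Dctr1_Con replicate 1, 2 or 3, and without CTR1D300 replicate 2, the adjusted p then running from 0.0529 to 0.148. The groups did not overlap for 4 of the 9, all lower in the deletion strain, against 11.3% of all genes. These were FDH1, SFC1 (-0.51 ± 0.14, adjusted p = 0.219), PCK1 (-0.27 ± 0.07, adjusted p = 0.208) and MLS1 (-0.23 ± 0.10, adjusted p = 0.509). With a replicate block 3 of the 9 fell, FDH1 with SFC1 (adjusted p = 0.0455) and PCK1 (adjusted p = 0.0204), while 1.03% of all genes fell. Here that block joins replicates 2 and 3 across slides, where the deviations correlated at only 0.295 and 0.134. With the slide as a fixed block 0 of the 9 passed. MBR1 was at 0.06 ± 0.29 and ICL1 at 0.03 ± 0.10, values that changed sign under several settings. Both empty-vector groups also serve as the controls of the construct comparisons, so these values and those above are not independent.

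Genes whose profile was closest to that of ISF1 were found by the root mean square difference over the 12 arrays, after each gene was centred on its own mean. The 5 nearest of the other genes outside the set were MTH1, a regulator in glucose sensing that holds down hexose transporter genes (0.722), ROQ1 (0.725), the hexose transporter gene HXT4 (0.727), RGI1, named for induction on respiratory growth (0.762), and FMP48 (0.811). In Dctr1_Con, MTH1 was at -1.35, -3.13 and -2.24, HXT4 at 1.70, 0.32 and 1.24, and RGI1 at 0.08, -2.09 and -1.003. Replicate 1 was the highest and replicate 2 the lowest of that group for each of them, as for ISF1. With CTR1D300 the 5 had fitted values from -3.31 for HXT4 to -1.15 for FMP48. Because the 5 were picked for likeness to ISF1 over these same arrays, this order and these signs follow from the choice and are no separate result. ISF1's own profile had a root mean square of 1.45 about its mean, so the nearest genes still differed from it by a sizeable share. Its paralog MBR1 was the nearest of the other 9, at 1.04 and rank 52 of all genes. Among the 10 themselves, the closest pair was MBR1 and CAT8 (0.186), followed by FBP1 and ICL1 (0.213), FBP1 and PCK1 (0.219) and MLS1 and SFC1 (0.250), distances that also shrink where both genes vary little.

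**Figure D4:**
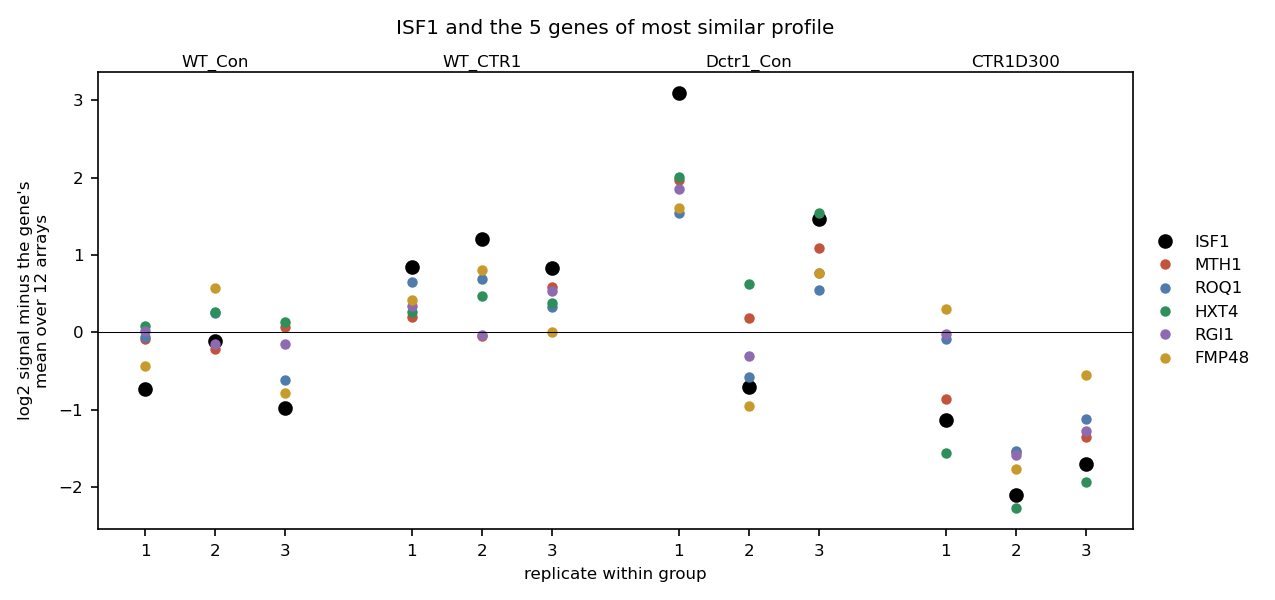
Signal of ISF1 (black) and of the 5 genes nearest to it in profile on each of the 12 arrays, on the y axis as log2 minus the gene's own mean, with replicates by group on the x axis. All 6 genes are highest in replicate 1 of Dctr1_Con, and their CTR1D300 arrays lie mostly below 0, a likeness by which the 5 were picked.

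Genes that work with these 10 were taken from 10 lists of 98 genes, of which 97 were tested. With CTR1 in wild type 12 rose and 9 fell, and with a replicate block 22 rose and 14 fell. The count without single arrays ran from 10 (WT_CTR1 replicate 3 left out) to 33 (WT_CTR1 replicate 2 left out). Under those settings 482 and 1134 of all 6127 genes changed. With CTR1D300, 22 rose and 39 fell. For the deletion, 0 of the 97 passed in limma, and a replicate block called 1. No list was tested as a set. Of all genes, 7.25% rose and 6.02% fell with CTR1, and 24% rose and 30.6% fell with CTR1D300. With a replicate block 15% of all genes rose and 12.4% fell with CTR1. For the deletion 0.49% of all genes changed, and 1.62% with the block.

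Among regulators, 2 of 9 genes of the Snf1 kinase and its partners rose with CTR1 (median 0.15), and 1 rose and 2 fell with CTR1D300 (median -0.12). SIP2, a β subunit of the kinase complex, fell with CTR1D300 (-0.70 ± 0.17, adjusted p = 0.00545). The REG1 and GAL83 calls with CTR1 (0.44 and 0.38) were unstable: on the higher-numbered spot REG1 was at -0.08, and GAL83 was lost on that spot (0.22) and when any of 8 single arrays was left out, all except WT_Con replicate 1, WT_CTR1 replicate 2, Dctr1_Con replicate 1 and CTR1D300 replicate 1. Of 12 repressors and activators, 2 rose and 1 fell with CTR1, and 3 rose and 5 fell with CTR1D300. The repressor gene NRG1 fell with CTR1D300 (-1.04 ± 0.19, adjusted p = 0.000852), while MIG3 (0.75 ± 0.13) and ERT1, an activator of gluconeogenic genes (0.63 ± 0.06), rose. With CTR1, ADR1 (0.68 ± 0.17, adjusted p = 0.0263) and MIG1 (0.34 ± 0.09, adjusted p = 0.032) rose. Both calls were lost without slide 1 (adjusted p = 0.1 and 0.174). They were also lost without WT_Con replicate 2 or 3 and without WT_CTR1 replicate 1 or 3, and that of MIG1 without WT_Con replicate 1. On the higher-numbered spot MIG1 was at 0.05 (adjusted p = 0.796), and under normexp background correction ADR1 was at 0.49 (adjusted p = 0.09). HXK2, the hexokinase gene that also takes part in glucose repression, fell with CTR1 (-0.51 ± 0.09, adjusted p = 0.0035). Its signal was also lower in CTR1D300 (3.53, 3.49 and 3.64) than in Dctr1_Con (3.98, 3.80 and 3.95).

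Of 12 genes of ethanol, acetate and glyoxylate use, 1 rose and 5 fell with CTR1D300 (median -0.27). ADH2, which encodes the alcohol dehydrogenase that oxidises ethanol, had signals of -3.92, -3.74 and -3.61 in Dctr1_Con and -5.45, -5.45 and -5.50 in CTR1D300. These groups were far apart, and ADH2 fell (-1.71 ± 0.10, adjusted p = 2.69e-07). ACH1 (-1.62 ± 0.29) and REG2 (-1.39 ± 0.12) fell as well. With CTR1, 2 rose and 1 fell, with ADH2 at 0.39 ± 0.10 (adjusted p = 0.0219), a call lost without WT_Con replicate 1 or 2 and without WT_CTR1 replicate 1 or 3, with values from 0.32 to 0.40.

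Of 7 genes of glycerol and lactate use, 2 rose and 2 fell with each construct. STL1, a glycerol importer gene, rose with CTR1 (1.12 ± 0.19, adjusted p = 0.00363) and fell with CTR1D300 (-1.07 ± 0.19, adjusted p = 0.000852), and both calls were lost under normexp background correction (0.43, adjusted p = 0.0889, and -0.24, adjusted p = 0.184). DLD3, a cytosolic lactate dehydrogenase gene, went the other way (-0.54 ± 0.07 and 1.01 ± 0.07). Fatty acid oxidation and the carnitine shuttle had 16 genes, of which 4 rose and 7 fell with CTR1D300. The peroxisomal thiolase gene POT1 was among the falls (-1.64 ± 0.21), and the carnitine acetyltransferase gene YAT2 among the rises (1.84 ± 0.10, adjusted p = 1.52e-07). With CTR1, 2 of the 16 rose and 1 fell. POT1 (0.81 ± 0.21, adjusted p = 0.0288) and CTA1 (0.46 ± 0.08, adjusted p = 0.00433) rose, and YAT2 fell (-0.64 ± 0.10, adjusted p = 0.00147). The POT1 call was lost without slide 1 (0.73, adjusted p = 0.11), and the CTA1 call on the higher-numbered spot (0.29, adjusted p = 0.0564).

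Among 9 mitochondrial carriers of organic acids other than SFC1, 4 rose and 3 fell with CTR1D300, and 1 rose and 3 fell with CTR1. The oxaloacetate carrier gene OAC1 was at 1.66 ± 0.13 with CTR1D300 and -1.11 ± 0.13 with CTR1, and the dicarboxylate carrier gene DIC1 at 1.51 ± 0.09 and -0.95 ± 0.09, all 4 past the test. These moved opposite to SFC1 in wild type. The citrate carrier gene CTP1 had signals of -0.07, 0.63 and 0.47 in Dctr1_Con and -2.14, -2.08 and -2.21 in CTR1D300, and it fell (-2.49 ± 0.22, adjusted p = 5.79e-06).

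The Gid ubiquitin ligase marks the Fbp1 and Pck1 proteins for breakdown when glucose returns. Of its 8 listed genes 2 rose and 6 fell with CTR1D300, and 0 passed with CTR1 in limma. VID24, which encodes the subunit that binds these enzymes, rose (1.21 ± 0.14, adjusted p = 4.85e-05), and UBC8, its ubiquitin-conjugating enzyme gene, fell (-1.03 ± 0.17, adjusted p = 0.000444). Of 9 genes of the opposing glycolytic and carboxylation steps, 3 rose and 3 fell with CTR1D300, PYC1 for pyruvate carboxylase among the rises (0.66 ± 0.08). Of 13 genes for other sugars, 1 rose and 5 fell, with HXK1 (-1.89 ± 0.44), GLK1 (-1.59 ± 0.33) and GAL4 (-1.28 ± 0.08) lower. Of the formate and formaldehyde genes, SFA1 rose (0.52 ± 0.06) and YJL068C fell (-0.46 ± 0.11) with CTR1D300.

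**Figure D5:**
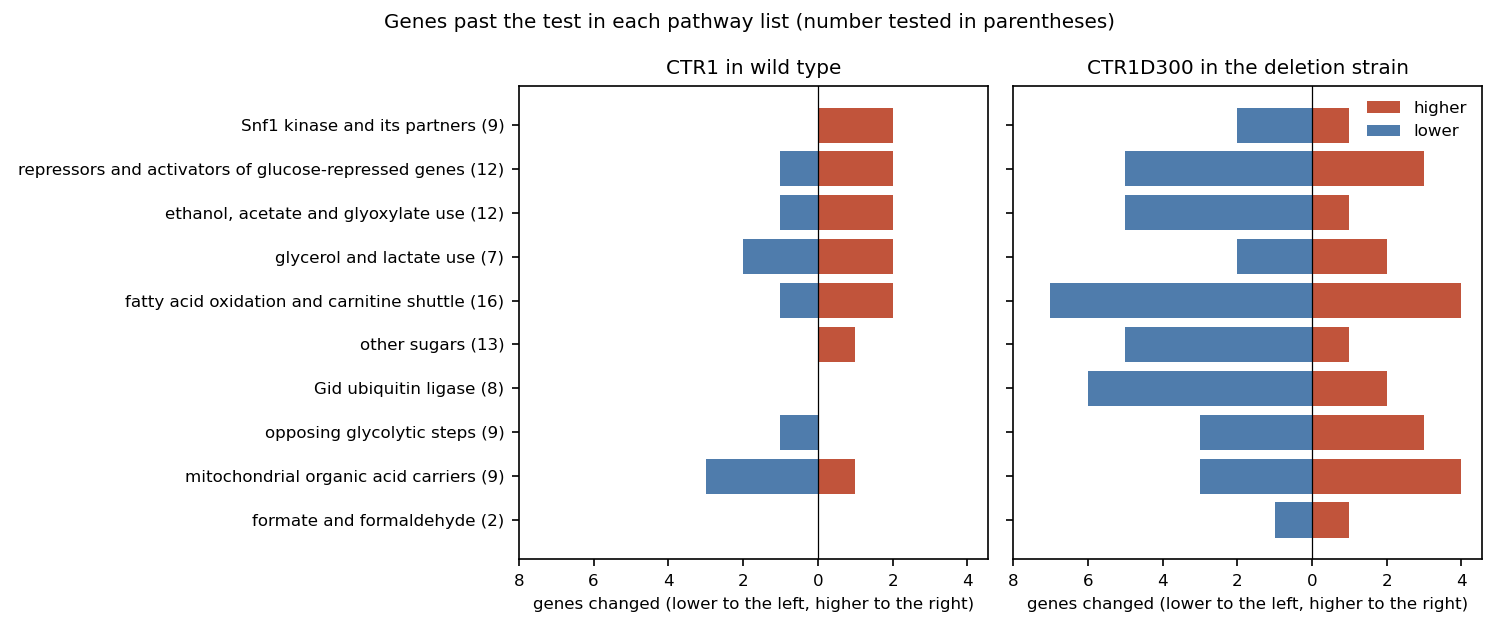
Number of genes that passed the test in each of the 10 lists with CTR1 in wild type (left) and with CTR1D300 in the deletion strain (right), lower genes to the left of 0 and higher genes to the right, with the number tested after each list name. The Gid list has 6 lower and 2 higher genes on the right and 0 on the left.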

How the data were processed

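Single-colour (Cy3) Agilent arrays were made from 0.4 µg of total RNA per culture, per the labels' protocols. Per the file headers, the deposited processed signal is a background-subtracted intensity per spot from Agilent Feature Extraction 10.7.1.1, not scaled between arrays, and each spot has deposited flags (other: 0 or 1) for saturation, for outliers and for signal well above background. The authors' series matrix holds log2 values for 5191 gene probes with 1 shared column median of 11.7, the pattern that quantile normalisation leaves; it holds 6 of the 10 genes (not FBP1, PCK1, MLS1 and SFC1) and served as an alternative.

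Here outlier spots were left out, each probe took the mean log2 signal of its 2 spots, and the array's 75th percentile was subtracted. A probe had to be well above background on 3 arrays or more (6155 of 6256 were), and the brightest probe stood for a gene. Group means were fitted to all 12 arrays with limma 3.58.1 in R 4.3.3 (8 residual degrees of freedom) and tested on simulated data. No gene spot was saturated, median processed signals ran from 1792 to 2999, and the number of arrays limits the precision. An exact permutation test of 3 against 3 could not go below 0.1, so none was used. Gene names came from a RefSeq table of assembly R64 for 5740 genes, and 488 kept their systematic names. The array annotation names another assembly, so no coordinates are given. No sequence was printed.

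The members and the lists were chosen with earlier results of these data known. Named are all 10 members, from each list up to 3 genes per comparison with the largest called changes whose groups did not overlap, the 5 genes nearest to ISF1 in profile, CTR1 and YOR387C. LEU2 and the strain markers were added as checks. The plan counted ISF1 for the deletion; it was taken out there because its choice used both control groups. As a check of pairing, deviations from the group mean were correlated between same-numbered arrays, with r across genes of 0.75, 0.692 and 0.342 (WT_CTR1 with WT_Con), 0.679, 0.699 and 0.394 (CTR1D300 with Dctr1_Con) and 0.554, 0.295 and 0.134 (Dctr1_Con with WT_Con). For CTR1D300 with WT_CTR1 they were 0.381, 0.407 and -0.03, so the numbers were not taken as pairs there. Alternatives were median centring, quantile normalisation, normexp background (offset 50), other filters, replicate and slide blocks, single spots, the series matrix and leaving out arrays. The other 2 FDH1 probes were added after the data were seen.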

Additional observations from a re-analysis of the deposited data

Results flagged for a closer look

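For 8 of the 9 genes other than ISF1, the effect of CTR1D300 in the deletion strain differed from the effect of CTR1 in wild type by the interaction term of the limma fit. Of all genes tested, 46.4% passed this term, and 26.7% passed with a value below 0. The count of the 9 was 6 under quantile normalisation, 7 under normexp background and 5 without slide 1. The JEN1 call was lost when any of 7 single arrays was left out. The difference, CTR1D300 minus CTR1, was -2.83 for FDH1, -2.40 for MBR1, -2.05 for CAT8, -1.63 for MLS1, -1.14 for JEN1, -0.93 for SFC1, -0.60 for FBP1 and -0.59 for ICL1. All 3 replicate sets had the same sign for each of these genes, but the sets join the strains by replicate number only. For FDH1, MLS1 and FBP1, whose groups did not overlap in either construct comparison, any pairing gives that sign. Strain and construct changed together, so the difference cannot be assigned to either.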

How the results depend on the processing

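Counts of the 9 genes and of all genes moved most with CTR1 in wild type and with the deletion. With CTR1, 3 of 9 became 7 with a replicate block, 5 with the slide as a fixed or random block, 5 on the lower-numbered spot and 1 of 5 held in the series matrix. The 813 genes called in all became 1677 with a replicate block, 1307 and 1338 with the slide as a fixed and a random block, 1362 on the lower-numbered spot and 349 without slide 1. For the deletion, 1 of 9 became 3 with a replicate block and 0 under quantile normalisation, normexp background, the slide as a fixed block, without slide 1 and in the series matrix, and the 30 genes called in all became 99 with a replicate block. For CTR1D300 against WT_CTR1 the series matrix gave 4 of 5. For the difference between the construct effects, 5 of 9 passed without slide 1 and 4 of 5 in the series matrix.

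With single arrays left out, the counts of the set ran from 3 to 7 with CTR1, 5 to 6 with CTR1D300, 0 to 1 for the deletion, 8 to 9 for CTR1D300 against WT_CTR1 and 7 to 8 for the difference. Those of all genes ran from 482 to 1134, 2803 to 3502, 18 to 42, 3365 to 3900 and 2269 to 3196 in the same order. Without slide 1 fewer arrays entered, and otherwise the cause was not tested.

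Within the set, direction turned only for values near 0, given here to more decimals. With CTR1, ICL1 was at -0.0389 without slide 1, at -0.128 on the higher-numbered spot, and between -0.0305 and 0.153 with single arrays left out. For the deletion, MBR1 was at -0.0543 under normexp background, -0.0773 with the slide as a fixed block and between -0.142 and 0.217 with single arrays left out. FBP1 was there at 0.0198 under quantile normalisation and 0.0724 with the slide as a fixed block, and ICL1 at -0.0608 without slide 1, -0.0171 on the higher-numbered spot and between -0.048 and 0.0848 with single arrays left out. The PCK1 difference between constructs was at 0.0073 under median centring and 0.184 under quantile normalisation. Among the list genes, REG1 with CTR1 went from 0.44 to -0.0106 under normexp background and -0.0817 on the higher-numbered spot, and GUT1 from 0.65 to -0.0086 on that spot. Of the other alternative values of the 10 genes, 1107 kept direction and side of the threshold, 34 lost and 30 gained a call, and 4 of the untested ISF1 moved by more than the SD. Of the list genes' values, 2378 kept both and 125 lost the call.

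Under quantile normalisation 50.5% of the genes called between the over-expressing groups were higher, against 38.9% in the main scaling, and for the deletion 77.4% against 66.7%. For CTR1D300 against WT_CTR1 the numbers do not pair the arrays, and a replicate block left 9 of 9 lower there. Beyond the blocked values given with the results, the replicate block changed no call on the 10 genes. Weak signals such as FBP1 and FDH1 in CTR1D300 were still well above background on all arrays.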
